A study of Jaculus jaculus with 13 samples.

Results

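SRSF2, LUC7L3, CLK3, EWSR1 and UHMK1 are 5 splicing-linked genes of the 24433 genes counted in the kidney of the Jerboa (Jaculus jaculus), a desert rodent. They were taken by the gene identifiers that the study prints for them. The first 4 were picked there as highly connected genes of a co-expression module that was higher after rehydration, and UHMK1 as a highly connected gene of a module that was lower. For short, the first 4 are called the rising genes. The choice therefore used the levels of these genes in these same animals. Their levels and fold changes are given as a description, with no test, and the way in which they move with the groups is not a finding. All 5 passed the filter on low counts that left 15064 genes for testing.

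RNA was sequenced from the whole left kidney of 13 wild-caught adult males after poly-A selection. There were 4 controls that could drink freely (CM01, CM03, CM04, CM06), 4 animals after dehydration by 11 days of water restriction (DHM02, DHM03, DHM05, DHM06) and 5 animals after rehydration, in which 7 days of restriction were followed by 3 days with free water (RHM01, RHM02, RHM04, RHM07, RHM08). These days are those of the sample labels, and the methods of the study give other durations for both treatments. All animals were housed singly with dry food, and their age and earlier access to water are not known. Each animal is 1 replicate with 14071802 to 22949762 assigned counts.

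Pre-mRNA splicing removes introns from a new transcript and joins its exons. SR proteins, which carry a domain rich in arginine and serine, bind exons and help the spliceosome to find the splice sites, and their activity is set by phosphorylation of that domain. Kinases of the CLK family phosphorylate SR proteins in the nucleus. Several genes of this group also regulate their own transcripts by alternative splicing, so that part of the RNA of such a gene may not code for full-length protein. Counts per gene sum over all of these forms and say nothing of their shares.

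SRSF2 (ENSJJAG00000013794), which encodes an SR protein, lies on the minus strand of scaffold JH725452.1 from 17047073 to 17050153 in the JacJac1.0 assembly, with 3 exons and 1814 exonic bases. LUC7L3 (ENSJJAG00000011218), which encodes a protein of the LUC7 family associated with the U1 small nuclear ribonucleoprotein, lies on the plus strand of the same scaffold from 32915423 to 32956426, with 10 exons and 3456 exonic bases. CLK3 (ENSJJAG00000008106), the kinase of SR proteins, lies on the minus strand of JH725716.1 from 109663 to 120223, with 12 exons and 1798 exonic bases. EWSR1 (ENSJJAG00000003308), which encodes an RNA-binding protein of the FET family, lies on the plus strand of JH725505.1 from 547631 to 581289, with 19 exons and 2828 exonic bases. UHMK1 (ENSJJAG00000015993), also called KIS, encodes a kinase that phosphorylates splicing factors such as SF1, and lies on the plus strand of JH725495.1 from 918433 to 940151, with 8 exons and 2518 exonic bases. None of the 5 shares exon bases with another annotated gene.

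Levels are counts normalised to the TMM-scaled library size (CPM), and fold changes are those of a single edgeR fit of all 3 groups, with their standard error (SE). SRSF2 was at 154, 172, 159 and 163 CPM in the controls CM01, CM03, CM04 and CM06. After dehydration it was at 213, 212, 203 and 196 CPM in DHM02, DHM03, DHM05 and DHM06. After rehydration it was at 303, 246, 282, 303 and 322 CPM in RHM01, RHM02, RHM04, RHM07 and RHM08. The 3 groups did not overlap, and the lowest rehydrated animal, RHM02, was nearest to the dehydrated animals. The log2 fold change of SRSF2 was 0.35 (SE 0.09) in dehydration compared to control and 0.50 (SE 0.08) in rehydration compared to dehydration.

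LUC7L3 was at 102, 113, 118 and 110 CPM in the controls, in the same order of animals. It was at 142, 125, 146 and 136 CPM after dehydration and at 192, 167, 215, 188 and 199 CPM after rehydration. Here too the groups did not overlap, CM01 was the lowest control and RHM02 the lowest rehydrated animal. The log2 fold change was 0.31 (SE 0.09) in dehydration compared to control and 0.49 (SE 0.08) in rehydration compared to dehydration.

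CLK3 had the lowest CPM of the genes that were higher after rehydration, with 73.8, 78.8, 79.5 and 80.7 CPM in the controls. After dehydration it was at 87.5, 99.5, 100.2 and 92.9 CPM, and after rehydration at 134, 112, 140 and 124 CPM in RHM01, RHM02, RHM04 and RHM07 and 127 CPM in RHM08. The groups were again separate, with CM01 and RHM02 the lowest of their groups. The log2 fold change was 0.28 (SE 0.08) in dehydration compared to control and 0.42 (SE 0.08) in rehydration compared to dehydration.

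EWSR1 was at 286, 283, 301 and 276 CPM in the controls and at 335, 314, 338 and 334 CPM after dehydration. After rehydration it was at 509, 371, 420, 417 and 452 CPM. The gap between controls and dehydrated animals was narrow, since the lowest dehydrated animal was 1.05 times the highest control. RHM02 was the lowest and RHM01 the highest of the rehydrated animals. The log2 fold change was 0.21 (SE 0.09) in dehydration compared to control and 0.39 (SE 0.09) in rehydration compared to dehydration. Both were the smallest of the 4 genes in this fit. In rehydration compared to dehydration the order of EWSR1 and CLK3 turned with an offset for gene length (0.48 and 0.46). It also turned without RHM04 (0.44 and 0.42) and without DHM02 (0.42 and 0.40).

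UHMK1 moved the other way and by more. It was at 175, 160, 205 and 196 CPM in the controls and at 121, 100.4, 108 and 100.7 CPM after dehydration. After rehydration it was at 20.7 CPM in RHM01, 69.8 in RHM02, 41.8 in RHM04, 34.6 in RHM07 and 36.8 in RHM08. Every dehydrated animal was below every control and every rehydrated animal below every dehydrated animal, with RHM02 the nearest of them. The lowest control was 1.33 times the highest dehydrated animal, and the lowest dehydrated animal was 1.44 times RHM02. The log2 fold change was −0.78 (SE 0.26) in dehydration compared to control and −1.40 (SE 0.24) in rehydration compared to dehydration. In whole kidney RNA, fewer cells of a type that holds this transcript and less of it per cell cannot be told apart, which applies to every gene given here.

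**Figure D1:**
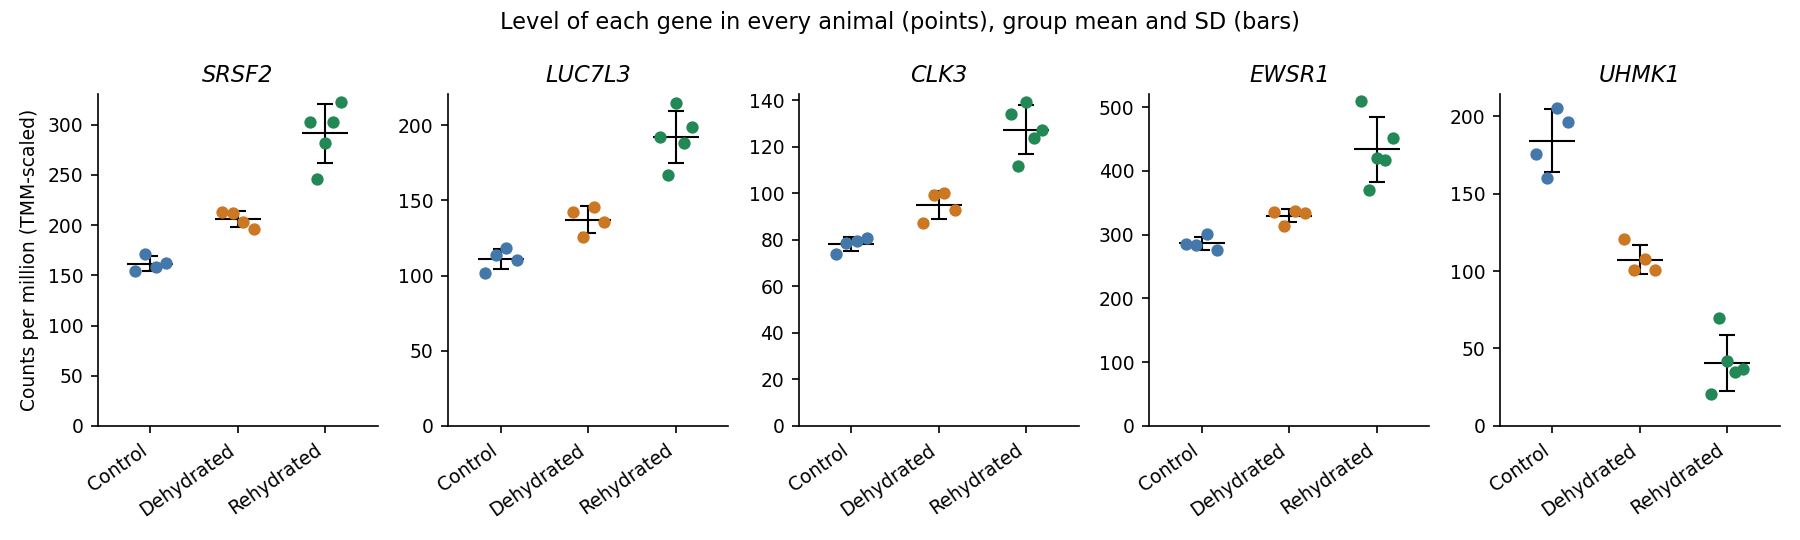
CPM (TMM-scaled, linear axes from 0) of the 5 genes in each animal, with points for animals and bars for the group mean and SD (n = 4, 4 and 5). In each panel the 3 groups are separate, with dehydration between control and rehydration, and UHMK1 is the gene that is lower, at between 20.7 and 69.8 CPM after rehydration.

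Separate groups were found for many other genes. In dehydration compared to control, 8.82% of the tested genes were higher in every animal and 10.3% lower in every animal. Corresponding shares were 15.5% and 18.6% in rehydration compared to control, and 9.05% and 12.6% in rehydration compared to dehydration. The full order from control through dehydration to rehydration without overlap was met by 237 genes (1.57%) upwards, SRSF2, LUC7L3, CLK3 and EWSR1 among them, and by 648 genes (4.30%) downwards, UHMK1 among them. For reference, 0.478% of the tested genes were called by edgeR in dehydration compared to control, 28.8% in rehydration compared to control and 8.19% in rehydration compared to dehydration (quasi-likelihood test, Benjamini-Hochberg adjusted p under 0.01). The first and the last of these shares were unstable. They rest on 72 and 1233 genes, which became 1 (without CM06) to 235 (without RHM01) and 380 (without DHM02) to 2005 (without RHM02) with an animal left out, and 949 and 2769 with DESeq2. The middle share rests on 4331 genes, which became 3334 to 4491 with an animal left out and 5439 with DESeq2. With the animal number as a block, given with the processing alternatives, the counts were 0, 987 and 0, in a fit with much less left to measure the spread. Because the 5 genes were chosen on these groups, nothing is read from their own place among the tested genes.

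In rehydration compared to control the fitted level was 1.80-fold higher for SRSF2, 1.73-fold for LUC7L3, 1.63-fold for CLK3 and 1.51-fold for EWSR1, and it was 4.51-fold lower for UHMK1 (log2 fold change −2.17, SE 0.25).

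With TMM scaling, the dehydrated group lay between control and rehydration for each gene on the log2 scale. The groups are different animals, with 11 days of restriction in dehydration and 7 before rehydration, so this is no time course. The change from control to dehydration was 41.3% of the change from control to rehydration for SRSF2, 39.9% for CLK3, 38.6% for LUC7L3, 35.8% for UHMK1 and 34.3% for EWSR1. Leaving out an animal at a time, these shares ran from 36.0% to 44.02% for SRSF2, from 32.4% to 41.7% for CLK3, from 31.4% to 43.6% for LUC7L3, from 31.8% to 39.8% for UHMK1 and from 28.0% to 37.7% for EWSR1. From plain differences between group means of log2 CPM under the same scaling, in place of the edgeR fit, it was 41.6% for SRSF2, 39.9% for CLK3, 38.7% for LUC7L3, 34.7% for EWSR1 and 34.1% for UHMK1, so that the order of the lowest 2 depends on the estimator. When these plain differences were scaled by the reference genes CUL1 and PPIA, described further on, the share was 54.9% for SRSF2, 56.4% for CLK3, 52.3% for LUC7L3 and 53.2% for EWSR1, but 31.1% for UHMK1. The distance between UHMK1 and the rising genes in this share therefore depends on the scaling, here on PPIA, which itself rose after rehydration. Both changes are measured from the same controls.

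**Figure D2:**
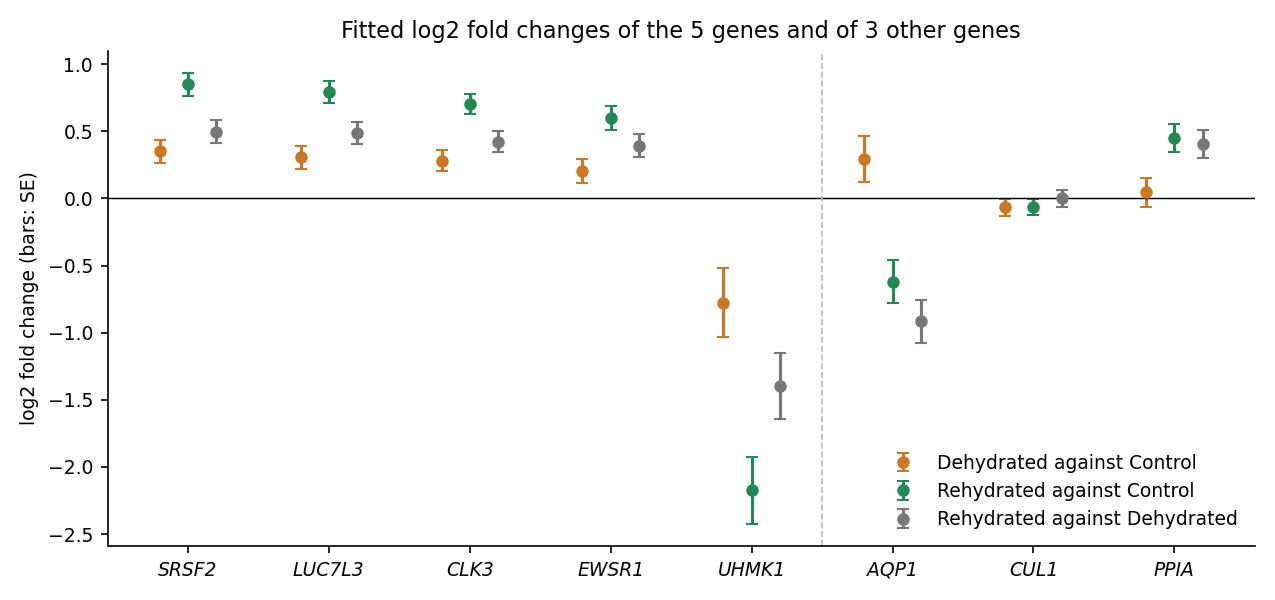
Fitted log2 fold changes (points) with their SE (bars) in the 3 comparisons for the 5 genes and, right of the dashed line, for AQP1 and the reference genes CUL1 and PPIA. The 4 rising genes lie between 0.21 and 0.85, and UHMK1 between −2.17 and −0.78.

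To compare levels between genes, counts were divided by exonic length and scaled to the same total in each animal (TPM). In controls EWSR1 had the highest level per length (112 ± 4.69 TPM, SD, n = 4), followed by SRSF2 (98.9 ± 3.24), UHMK1 (81.2 ± 8.94), CLK3 (48.2 ± 1.20) and LUC7L3 (35.6 ± 1.77). No neighbours in this order overlapped in their animals. After dehydration EWSR1 (132 ± 7.48 TPM, SD, n = 4) and SRSF2 (128 ± 8.46) overlapped, and so did CLK3 (59.5 ± 3.91), UHMK1 (48.2 ± 5.88) and LUC7L3 (44.8 ± 4.11), each with the next in order. After rehydration SRSF2 (166 ± 13.3 TPM, SD, n = 5) and EWSR1 (159 ± 13.3) overlapped at the top, CLK3 was at 73.3 ± 4.54 and LUC7L3 at 57.6 ± 4.35. UHMK1 was then the lowest of the 5 at 16.96 ± 8.07 TPM. On this scale UHMK1 stood above 86.1% of the tested genes in controls, 77.2% after dehydration and 54.7% after rehydration, while SRSF2 went from 88.8% through 91.5% to 93.9%.

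The ratio of the counts of a pair of genes within an animal does not depend on how libraries are scaled. The log2 ratio of UHMK1 to SRSF2 was 0.19, −0.10, 0.37 and 0.27 in the controls and −0.82, −1.08, −0.92 and −0.96 after dehydration. After rehydration it was −3.87 in RHM01, −1.82 in RHM02, −2.76 in RHM04 and −3.13 in both RHM07 and RHM08. UHMK1 thus had about as many counts as SRSF2 in controls and between 0.0684 and 0.284 of them after rehydration. With CLK3, LUC7L3 or EWSR1 in place of SRSF2, the mean log2 ratio after rehydration differed from that in controls by −2.98, −3.07 and −2.87, respectively, and in none of these ratios did rehydrated animals and controls overlap.

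Among the rising genes, the ratios stayed within a narrow range. Over all 13 animals the log2 ratio of each of the 6 pairs spanned 0.34 to 0.52, against 4.05 to 4.24 for the ratios with UHMK1. SRSF2 to CLK3 was 1.05 ± 0.06 (SD, n = 4) in controls. After dehydration this ratio was 1.12 ± 0.11 (SD, n = 4), and after rehydration 1.19 ± 0.13 (SD, n = 5). The largest shift between controls and rehydrated animals was in SRSF2 to EWSR1, from −0.82 ± 0.10 (SD, n = 4) to −0.57 ± 0.11 (SD, n = 5). In all 6 ratios the rehydrated animals overlapped with the controls.

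**Figure D3:**
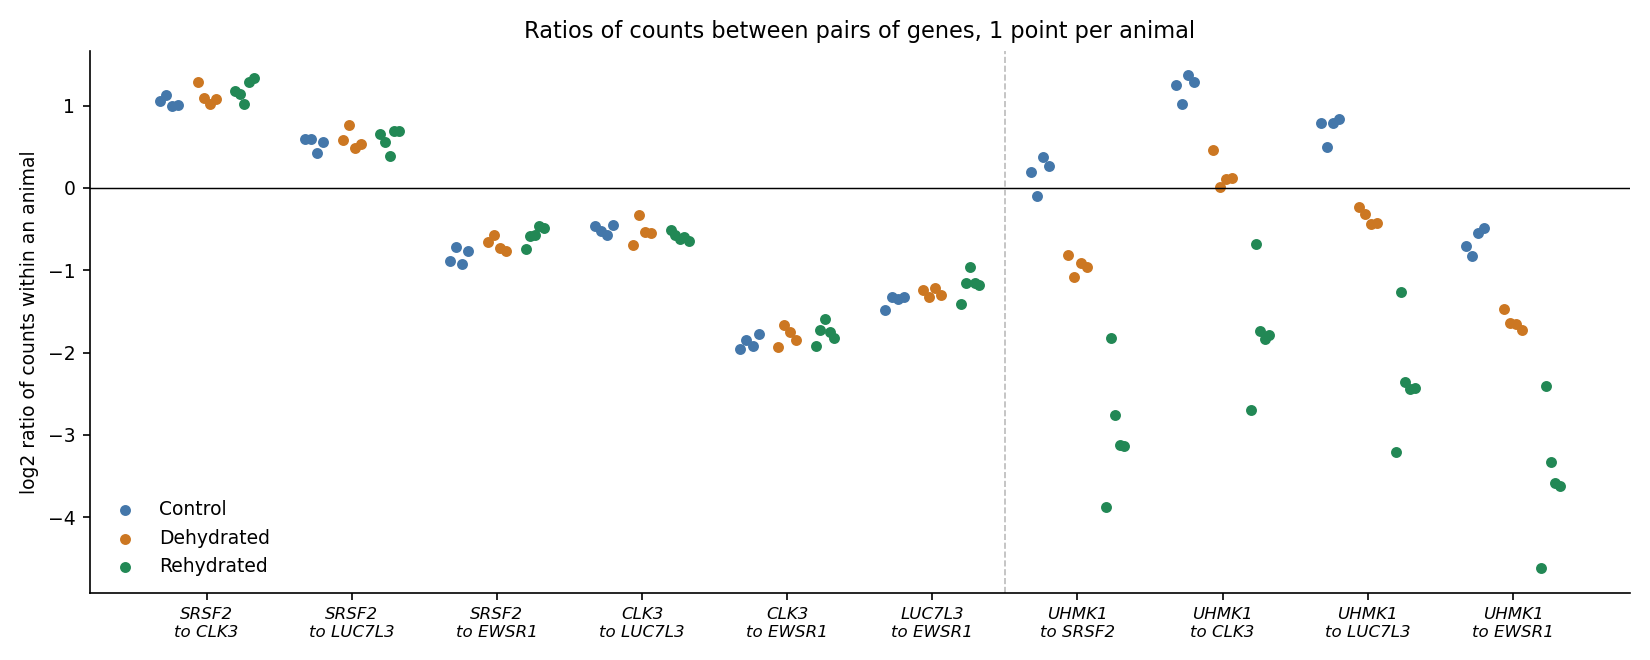
Log2 ratio of counts for 10 pairs of genes, with 1 point per animal coloured by group and the 6 pairs among the rising genes left of the dashed line. Groups overlap left of the line, whereas right of it the ratios of UHMK1 fall in steps from control through dehydration to rehydration.

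Rehydrated animals differed among themselves most in UHMK1. Its coefficient of variation was 11.0% in controls (n = 4), 8.87% after dehydration (n = 4) and 44.2% after rehydration (n = 5). For the other 4 genes it was 3.65% to 6.20% in controls, 3.22% to 6.45% after dehydration and 8.28% to 11.8% after rehydration. Counting error was small beside this spread, at 4.07% on average for UHMK1 after rehydration. The library with the fewest UHMK1 counts, RHM01, held 333, which gives a 95% exact Poisson interval of 18.6 to 23.1 CPM for counting error alone. In the fit, the biological coefficient of variation of UHMK1 was 26.1% against 18.8% for genes of its abundance, whereas SRSF2, LUC7L3, CLK3 and EWSR1 had 10.6% to 11.9% against 18.7% to 20.2%.

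RHM02 was the rehydrated animal with the lowest level of all 4 rising genes and the highest level of UHMK1. Its log2 deviation from the mean of its group was −0.24 for SRSF2, −0.20 for LUC7L3, −0.18 for CLK3 and −0.22 for EWSR1, and 0.88 for UHMK1. RHM01 was the opposite for UHMK1, with a deviation of −0.87, and had the highest EWSR1, with a deviation of 0.24. Without RHM02 the coefficient of variation after rehydration (n = 4) was 26.9% for UHMK1 and 5.32% to 9.52% for the others. RHM02 had the deepest library of the rehydrated animals (19267059 counts), and the part of depth in this was not tested.

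Deviations from the group means show whether the genes vary together inside groups. Over the 13 animals the Pearson correlation of these deviations was 0.45 to 0.61 for the 6 pairs of rising genes. With UHMK1 it was −0.82 for EWSR1, −0.67 for SRSF2, −0.55 for CLK3 and −0.25 for LUC7L3. These values depended on RHM02 and RHM01. Without RHM02 (n = 12) the rising pairs ranged from −0.18 to 0.32, and the values with UHMK1 were −0.64 for EWSR1, −0.16 for SRSF2, −0.09 for CLK3 and 0.46 for LUC7L3. Without RHM01 instead (n = 12) the rising pairs ranged from 0.37 to 0.73, and the values with UHMK1 were −0.61 for EWSR1, −0.78 for SRSF2, −0.52 for CLK3 and −0.36 for LUC7L3. Without both, left out together after the data were seen (n = 11), the rising pairs ranged from −0.25 to 0.47, and the values with UHMK1 were 0.26 for EWSR1, −0.29 for SRSF2, 0.14 for CLK3 and 0.61 for LUC7L3. Spearman's coefficient over all 13 animals was −0.13 for EWSR1 with UHMK1. The points share their library and its scaling, and each library's depth enters both genes of a pair.

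**Figure D4:**
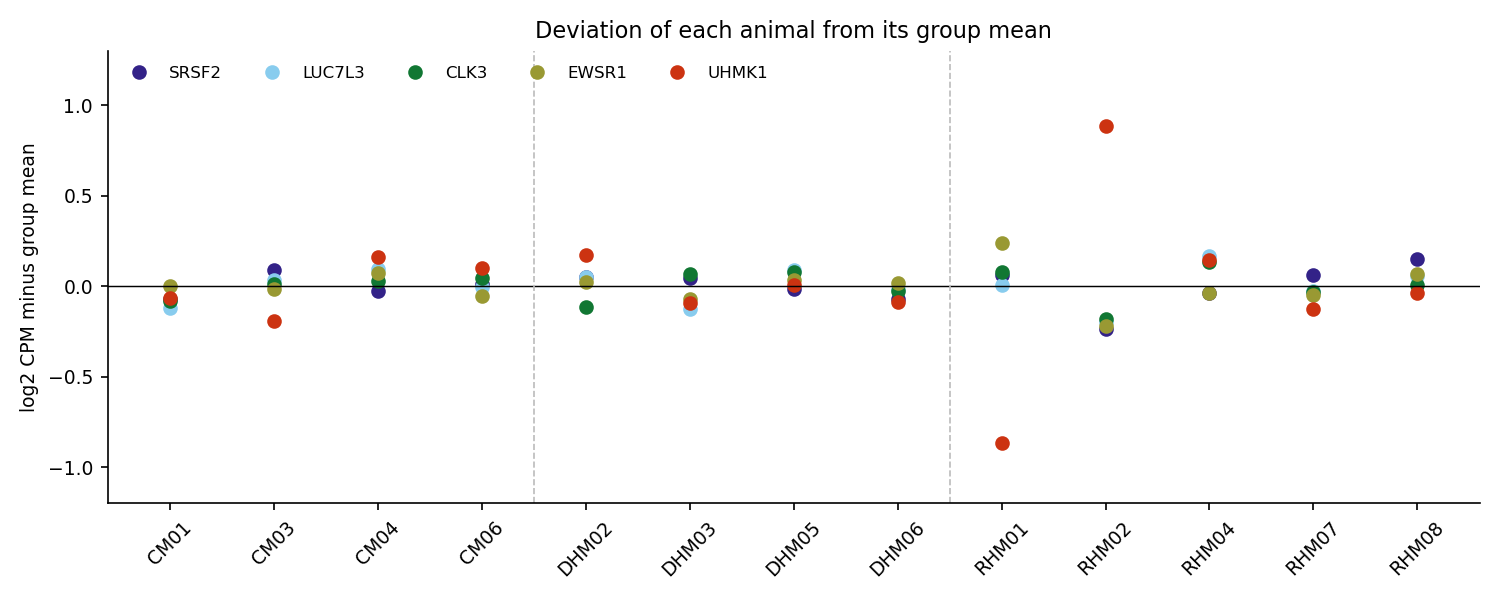
Deviation of log2 CPM from the group mean for the 5 genes (colours) in each of the 13 animals, with dashed lines between control, dehydrated and rehydrated animals. RHM02 lies 0.88 above the group mean for UHMK1 and below it for the other 4 genes, and RHM01 has a deviation of −0.87 for UHMK1.

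Likeness of pattern was measured as the Pearson correlation of log2 CPM over all 13 animals, which mostly reflects the steps between groups and is a description. A correlation above 0.9 was reached by 322 to 395 of the other 15063 genes for each rising gene and by 1362 for UHMK1. Among all genes ordered by likeness, LUC7L3 was the 8th nearest to CLK3 and CLK3 the 10th nearest to LUC7L3, the nearest ranks among the rising genes. EWSR1 stood further off, as the 62nd nearest to SRSF2, the 87th to LUC7L3 and the 90th to CLK3, and CLK3 was only the 118th nearest to EWSR1. UHMK1 was the 38th most opposite gene to EWSR1 and the 179th to LUC7L3. Of the 32 other genes with a symbol that were abundant enough to compare, those nearest to UHMK1 were TGFBR1 (r = 0.98), SMAD5 (0.97) and BMPR2 (0.96), which encode a receptor kinase for transforming growth factor beta, a signal transducer of bone morphogenetic proteins and a receptor for them. For each rising gene the nearest 3 were the other rising genes, with r from 0.94 to 0.97. Only genes that the study prints with an identifier could be compared here by symbol. The rising genes were picked there from the same module, and the study places TGFBR1, SMAD5 and BMPR2 in the module of UHMK1. These nearest genes are therefore no finding.

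Genes around the 5 on their scaffolds had changes of either sign. The 18 tested genes that are the nearest 2 on each side (CLK3 has none on its right) had log2 fold changes from −0.91 to 0.90 in rehydration compared to control, and 2 of them (on the right of LUC7L3 and of EWSR1) were called, against 28.8% of all tested genes. The genes on either side of SRSF2, 389 and 1046 bases away, had log2 fold changes of 0.28 (SE 0.08, edgeR adjusted p = 0.0134) and −0.23 (SE 0.11, edgeR adjusted p = 0.110). Within the span of UHMK1, on the same strand and with no exon base in common, lies a gene with 30 to 62 counts per animal. Its log2 fold change of 0.20 (SE 0.23) did not have the sign of UHMK1.

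UHMK1 is reported to lower the expression of the water channel AQP1 (ENSJJAG00000017823) in pituitary cells, and AQP1 was therefore compared across the same animals. The study discusses AQP1 together with UHMK1 in these animals, so the choice of this gene pair is not independent of their levels. It states a negative correlation between the expression of this pair after dehydration. By PCR in more animals, females included, the study reports that AQP1 rose in dehydration and recovered in rehydration. It also states that its sequencing data, unlike the PCR, gave no significant AQP1 change between control and dehydration. AQP1 was at 707, 821, 706 and 784 CPM in the controls, at 817, 910.2, 1038 and 935 CPM after dehydration and at 332, 516, 422, 664 and 522 CPM after rehydration. In dehydration compared to control the groups overlapped and the log2 fold change was 0.29 (SE 0.17, edgeR adjusted p = 0.308), in animals whose UHMK1 was below every control. AQP1 fell in rehydration compared to control, with a log2 fold change of −0.62 (SE 0.16, edgeR adjusted p = 0.00704), so that both AQP1 and UHMK1 were lower in 5 of 5 rehydrated animals than in any control. Compared to dehydration, the log2 fold change of AQP1 in rehydration was −0.91 (SE 0.16, edgeR adjusted p = 0.00308). RHM01 had the lowest level of both genes, whereas RHM02, the highest in UHMK1, was the third in AQP1.

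These AQP1 calls lie close to the threshold. Compared to control, the call in rehydration held in 12 of 21 alternative fits (adjusted p from 6.83e-04 to 0.0197 with edgeR or DESeq2). It was lost when CM03 (0.0172), CM04 (0.0128), CM06 (0.0197), DHM06 (0.0104), RHM04 (0.0174) or RHM08 (0.0127) was left out, with edgeR log2 fold changes from −0.65 to −0.56. The other losses were in edgeR with only the compared groups (0.0159), without both CM01 and RHM01 (0.0112), and in the paired fit given with the processing alternatives. Compared to dehydration the call held in 18 of 21, with an adjusted p from 2.48e-06 to 0.151 with edgeR or DESeq2. It was lost in edgeR without DHM05 (0.0104), with only the compared groups (0.0127), and in that block fit.

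The study measured transcripts by PCR against the reference genes CUL1, a scaffold protein of ubiquitin ligases, and PPIA, a peptidyl-prolyl isomerase. CUL1 was at 140 ± 8.26 CPM (SD, n = 4) in controls, 133 ± 2.67 CPM (SD, n = 4) in dehydrated and 134 ± 3.37 CPM (SD, n = 5) in rehydrated animals. Its log2 fold change was −0.07 (SE 0.06, edgeR adjusted p = 0.414) in rehydration compared to control, and 0.05 with an offset for gene length. PPIA rose from 661 ± 65.5 CPM (SD, n = 4) to 901 ± 110 CPM after rehydration (SD, n = 5), a log2 fold change of 0.45 (SE 0.10, edgeR adjusted p = 0.00361, called in 15 of 21 alternative fits with edgeR or DESeq2). The PPIA call was lost without CM01 (adjusted p = 0.0211 in edgeR), CM03 (0.01001) or CM06 (0.0144), with only the compared groups (0.0159), without both CM01 and RHM01 (0.0187), and in the paired fit.

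Scaling by the mean log2 level of these reference genes in place of TMM was applied to plain differences between group means of log2 CPM, not to the edgeR fit. Under TMM these plain differences in rehydration compared to control were 0.84 for SRSF2, 0.79 for LUC7L3, 0.70 for CLK3, 0.59 for EWSR1 and −2.28 for UHMK1, which was at −2.17 in the fit. Reference scaling shifted them by −0.19 for all genes, and the median of all tested genes was then −0.17. This shift came from PPIA, which itself rose (0.45 in the fit), whereas CUL1 did not (−0.07). The resulting log2 differences were 0.65 for SRSF2, 0.60 for LUC7L3, 0.51 for CLK3, 0.40 for EWSR1 and −2.47 for UHMK1. They were, against dehydration, 0.29, 0.29, 0.22 and 0.19 for the rising genes in the same order and −1.70 for UHMK1 (−1.50 under TMM), with a shift of −0.20. The directions of the 5 genes were the same with either scaling.

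After rehydration the measured change also moved with the length of a gene. With the tested genes split into 10 length classes of about equal size, the median log2 fold change in rehydration compared to control went from 0.24 in the shortest class to −0.19 in the longest, and in dehydration compared to control from 0.03 to −0.05. The study states that the RNA of the rehydration group had lower integrity values than the other groups, and the part of this in the results was not tested. LUC7L3 is in the longest class, EWSR1 and UHMK1 are in class 9 (median −0.09), and SRSF2 and CLK3 in class 7 (−0.02). With an offset for gene length the log2 fold changes in rehydration compared to control were 0.89 for SRSF2, 0.93 for LUC7L3, 0.74 for CLK3, 0.70 for EWSR1 and −2.11 for UHMK1.

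**Figure D5:**
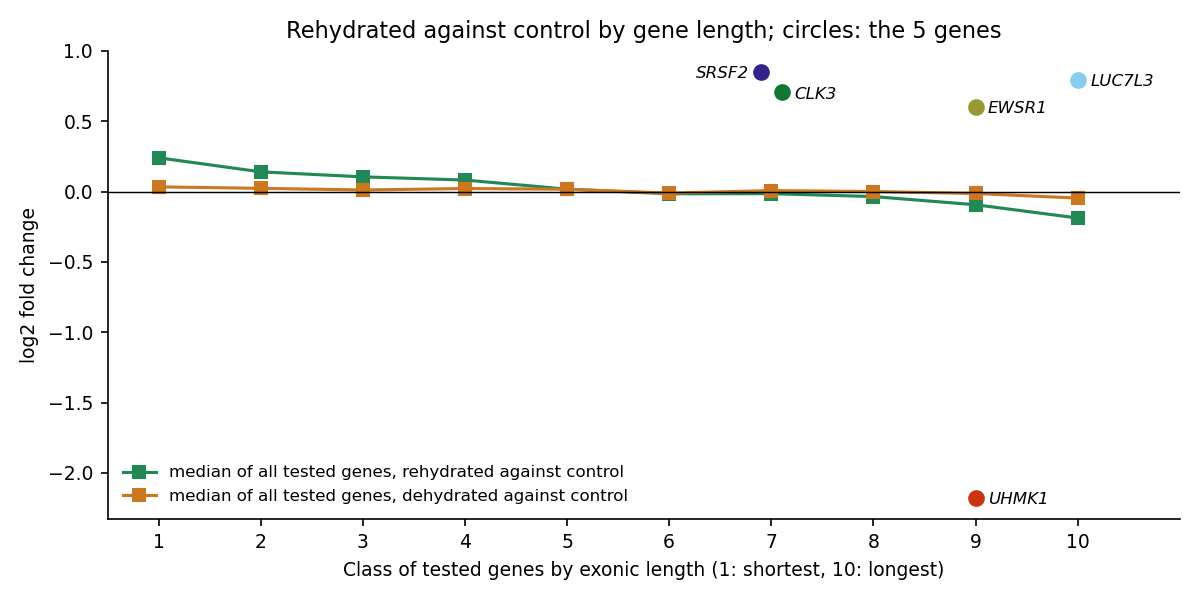
Median log2 fold change of all tested genes (squares) in rehydration and in dehydration compared to control, by 10 classes of exonic length, with circles for the 5 genes in rehydration compared to control. The rehydration medians go from 0.24 to −0.19. Because the 5 genes were chosen on these groups, nothing is read from their place above or below the median of their class.

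CM01 and RHM01, and to a lesser degree DHM03, stood apart from their groups in immune genes. The summed level of 150 genes that the study prints for immune terms of a module built on these animals was 14360 CPM in CM01, against 1292 to 2263 CPM in the other controls, and 10740 CPM in RHM01, against 1803 to 2289 CPM in the other rehydrated animals. After dehydration it was 4794 CPM in DHM03, against 1831 to 2693 CPM in the other animals. Without DHM03 the log2 fold changes in dehydration compared to control were 0.33 for SRSF2, 0.34 for LUC7L3, 0.25 for CLK3, 0.22 for EWSR1 and −0.76 for UHMK1. Without CM01 and RHM01 (n = 11) the log2 fold changes in rehydration compared to control were 0.81 for SRSF2, 0.75 for LUC7L3, 0.66 for CLK3, 0.53 for EWSR1 and −2.03 for UHMK1. In that fit AQP1 was at −0.54 with an edgeR adjusted p of 0.0112, and PPIA at 0.34 with 0.0187. The tissue label was checked by the collecting duct water channels AQP2 and AQP3, which were detected in every animal, at 100.2 to 774 CPM and 41.3 to 276 CPM. Both differed between the groups. AQP2 was at 191 to 273 CPM in controls, 539.6 to 774 CPM after dehydration and 100.2 to 290.0 CPM after rehydration, and AQP3 at 41.3 to 99.6 CPM, 166 to 276 CPM and 57.7 to 88.2 CPM. The dehydrated animals lay above all others in both genes, with log2 fold changes of 1.49 (SE 0.25) for AQP2 and 1.73 (SE 0.25) for AQP3 compared to control, and −1.72 (SE 0.24) and −1.66 (SE 0.23) in rehydration compared to dehydration. Rehydrated and control animals overlapped in both, unlike in the 5 genes. SCNN1G, an epithelial sodium channel subunit, was also examined. It was at 68.3 to 89.1 CPM in controls, 89.4 to 123 CPM after dehydration and 108 to 168 CPM after rehydration. Compared to control its log2 fold change was 0.44 (SE 0.14) in dehydration and 0.68 (SE 0.13, edgeR adjusted p = 0.00137) in rehydration. Its dehydrated and rehydrated animals lay above every control, as in the rising genes, but overlapped with each other. Whether a change in collecting duct cells or their RNA has a part in the levels of the 5 genes was not tested.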

How the data were processed

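Poly-A RNA of whole left kidneys from male Jerboas was sequenced in paired ends, and the 13 animals with a sample label were used. The authors aligned the reads with Rsubread to the JacJac1.0 assembly with its Ensembl annotation and deposited raw counts per gene from featureCounts (Subread 1.6.2 in the submitters' processing notes). The exonic length of each gene is also as deposited by the authors. Whether the counting used strand is not given in the sources used here. A further 2 per-animal columns match no sample label and were not used.

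Groups came from the sample labels. The 5 genes and all lists were chosen with earlier results of these data known. A mean count of 8 or more was required, which 15064 genes met. Counts were scaled by TMM and the 3 groups fitted together with edgeR 4.0.16 in R 4.3.3 (quasi-likelihood test, Benjamini-Hochberg adjustment over all tested genes, called under 0.01). The prior count for log2 CPM was 1. TPM values were computed here from counts and exonic lengths. Alternatives were DESeq2 1.42.0 (Wald test, default filtering), its size factors in edgeR, other count filters, the compared groups alone, leaving out animals, a gene length offset (span 0.3), blocking on the animal number, and, chosen after seeing the data, differences between group means of log2 CPM, with TMM or reference gene scaling. Descriptions were computed in Python 3.11.15.

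The named genes are the 5 members and, for each, the 3 genes of most similar pattern with a symbol and a mean count of 50 or more. Outside that rule, AQP1, CUL1, PPIA, AQP2, AQP3 and SCNN1G are also named. Symbols were paired with identifiers from the paper alone, where some identifiers carry an additional zero, which was removed. Lists of other splicing genes and of cell type markers could not be paired with identifiers and were not used here, apart from AQP1, AQP2, AQP3 and SCNN1G. Intervals cover counting error only, and precision otherwise comes from the spread between animals.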

Additional observations from a re-analysis of the deposited data

Results flagged for a closer look

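Of 45 groups of values examined (the CPM of the 5 genes and the log2 ratios of their 10 pairs, in 3 groups each), 2 held an animal whose gap to its nearest neighbour was a larger part of the range of the group than Dixon's critical value, and chance gives about 1 such group in 20. Both are in controls and both involve LUC7L3. The log2 ratio of LUC7L3 to EWSR1 was −1.49 in CM01 and −1.35 to −1.32 in the other 3 controls, with a gap of 0.854 of the range against a critical value of 0.829 for 4 animals. The log2 ratio of UHMK1 to LUC7L3 was 0.50 in CM03 and 0.78 to 0.83 in the other controls, with a gap of 0.848 of the range. The CPM of the 5 genes gave no such animal in any group, RHM02 included, but on the log2 CPM scale, tried after seeing the data, 1 appeared. The EWSR1 level of DHM03 among the dehydrated animals had a gap of 0.831 of the range in log2 CPM and of 0.826 in CPM, on either side of the critical value.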

How the results depend on the processing

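All 345 alternative values of the 15 fold changes of the 5 genes kept their direction, and 334 of them differed from the reported value by less than 1 SD between animals. The groups of these genes did not overlap, so leaving out animals could hardly turn a direction. The count of kept directions is therefore no measure of support. In rehydration compared to control, leaving out each animal in turn gave 0.81 to 0.88 for SRSF2, 0.73 to 0.82 for LUC7L3, 0.66 to 0.72 for CLK3, 0.54 to 0.63 for EWSR1 and −2.48 to −2.01 for UHMK1. Scaling group means of log2 CPM by the reference genes gave 0.65, 0.60, 0.51 and 0.40 for the 4 rising genes (0.29, 0.29, 0.22 and 0.19 in rehydration compared to dehydration), and an offset for gene length gave 0.93 for LUC7L3. The labels give some animals of different groups the same number, and over the 5 such pairs the deviations from the group means correlated at 0.119 on average (−0.0157 to 0.338, the highest for CM01 and RHM01), against −0.0107 (up to 0.285) over the 51 other pairs between groups. These values cannot decide what the animals of a pair share, and the main fit does not pair them. The study names the date of capture as a batch, which is not in the labels used here, and its part was not tested. A block on the animal number fits a term for each number and leaves little to measure the spread with. DHM05, RHM07 and RHM08, whose numbers occur in no other animal used, add nothing to its comparisons. With the animal number as a block, UHMK1 was at −1.08 and EWSR1 at 0.29 in dehydration compared to control. In rehydration compared to control UHMK1 was then at −2.41. The change in dehydration, as a share of that in rehydration, was 49.4% for EWSR1, 48.6% for SRSF2, 44.9% for UHMK1, 42.3% for LUC7L3 and 41.2% for CLK3. EWSR1, the lowest in the main fit, was thus the highest, and UHMK1 lay above LUC7L3 and CLK3. The block left 0 genes called in dehydration compared to control, 987 in rehydration compared to control and 0 in rehydration compared to dehydration, and AQP1 at −0.80 (adjusted p = 0.0148 in edgeR) and −0.89 (0.151) against control and dehydration, and PPIA at 0.52 (0.0505) against control.

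The number of genes called in dehydration compared to control (72) was 949 with DESeq2, 157 with only the compared groups, 141 without CM01 and RHM01, 894 at an adjusted p under 0.05, and 1 to 235 with an animal left out. In rehydration compared to control (4331) it was 6563 at 0.05 and 3334 to 4491 with an animal left out. In rehydration compared to dehydration (1233) it was 2769 with DESeq2, 313 with only the compared groups, 3614 at 0.05 and 380 to 2005 with an animal left out. The cause of these differences was not tested. The mean correlation over animals was 0.95 for the 6 rising pairs and −0.95 for UHMK1 with each (Spearman 0.93 and −0.90; 0.95 to 0.96 and −0.96 to −0.95 with an animal left out). That of deviations was 0.50 and −0.57 (Spearman 0.35 and −0.17; 0.032 to 0.58 and −0.64 to −0.11 with an animal left out, nearest to 0 in both without RHM02; 0.062 and 0.18, so reversed for UHMK1, without both RHM01 and RHM02). Counts of called genes of the splicing lists were not run.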
